A study of Mus musculus with 8 samples.

Results

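The type I interferon response was described here through 32 named genes in mouse CD8+ T cells of the OT-I line, whose transgenic receptor is specific for SIINFEKL, a peptide of ovalbumin. Members were found as rows of the deposited count table whose symbol equals a name of the list, and all 32 were present among the table's 41730 rows. They were set apart as 7 regulators (receptor chains, transcription factors and a feedback gene), 4 sensors of foreign nucleic acid and 21 effectors. The T cells carried the OT-I genotype in both groups and had been cultured with bone marrow-derived dendritic cells pulsed with SIINFEKL. The cells were then sorted, and 4 libraries were sequenced after culture with RGX-104 at 2 µM, a synthetic compound that activates the liver X receptors (replicates 5 to 8), and 4 after culture with DMSO alone (control, replicates 1 to 4). The labels state neither the culture time, nor the age and number of the mice, nor whether replicates were separate cultures, so p-values measure only the spread between these libraries, which may be technical. The agonist was present during the co-culture, so dendritic cells and T cells were both exposed to it.

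Type I interferons bind a receptor made of Ifnar1 and Ifnar2, whose kinases phosphorylate Stat2. Stat2 and Irf9 are part of a complex that binds the interferon-stimulated response element (ISRE) in the promoters of antiviral genes. Irf7 amplifies interferon production, Usp18 shuts the receptor down, and Irf1 also answers interferon gamma through gamma-activated sites (GAS) in its promoter. In CD8+ T cells type I interferon is known as a signal that accompanies antigen and costimulation during priming.

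The promoter sequences below show how these inputs are written in 4 members on which the results turn or which illustrate the pathway: Isg15 and Ifit1 as classical targets, Trim30a as the member that passed the test, and Irf1 as a regulator with a gamma-activated site. Each is the 250 bases before the annotated start, from RefSeq on build GRCm38.p6, written 5′ to 3′ on the gene's strand. Capitals mark matches to the ISRE letters (GAAA, 2 bases of any kind, then GAAA) on either strand or to the GAS letters TTCNNNGAA, which read alike on both strands. The Isg15 stretch is chr4:156200819-156201068 on the minus strand and holds 3 overlapping ISRE matches. The Ifit1 stretch is chr19:34640639-34640888 on the plus strand, with 2 separate matches in the reverse orientation. The Trim30a stretch is chr7:104465194-104465443 on the minus strand, with 1 pyrimidine-rich match. The Irf1 stretch is chr11:53769764-53770013 on the plus strand, with a GAS match and no ISRE match.
Isg15: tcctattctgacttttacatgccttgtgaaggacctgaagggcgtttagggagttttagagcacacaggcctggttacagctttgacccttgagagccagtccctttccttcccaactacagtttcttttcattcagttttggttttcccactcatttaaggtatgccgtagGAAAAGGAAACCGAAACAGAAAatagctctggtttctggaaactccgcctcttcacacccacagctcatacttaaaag
Ifit1: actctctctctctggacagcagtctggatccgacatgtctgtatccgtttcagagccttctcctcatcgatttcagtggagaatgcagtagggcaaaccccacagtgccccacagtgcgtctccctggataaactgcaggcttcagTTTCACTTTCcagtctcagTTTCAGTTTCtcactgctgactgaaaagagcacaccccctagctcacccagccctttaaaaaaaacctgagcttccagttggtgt
Trim30a: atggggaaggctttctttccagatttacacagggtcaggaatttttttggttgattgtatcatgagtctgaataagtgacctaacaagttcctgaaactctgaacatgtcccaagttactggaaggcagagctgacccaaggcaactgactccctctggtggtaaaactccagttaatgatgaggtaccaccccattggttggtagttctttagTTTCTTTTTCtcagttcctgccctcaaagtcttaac
Irf1: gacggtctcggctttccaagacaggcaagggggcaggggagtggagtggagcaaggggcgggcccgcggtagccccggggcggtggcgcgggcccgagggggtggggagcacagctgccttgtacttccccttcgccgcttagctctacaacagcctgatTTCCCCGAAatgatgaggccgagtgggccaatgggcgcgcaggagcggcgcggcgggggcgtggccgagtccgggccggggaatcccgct

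Of the 32 members 26 matched an entry of the promoter table, and Mx1, Oas2, Usp18, Zbp1, Rtp4 and Dhx58 did not. In the full window of 300 bases, 14 of the 26 (53.8%) held the ISRE letters, against 3.99% of 27025 genes in the table. The GAS letters stood in 7 of the 26 (26.9%), against 9.55% of all genes. Both are matches of letters and do not show that a factor binds there. Some genes have several annotated starts, and a match in any of them was counted.

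Total counts ranged from 13144704 to 14947537 in RGX-104 libraries and from 14867824 to 15966972 in control libraries. The label of the cells was checked against a CD8 T cell list that also holds general T cell genes: all 11 in the table had counts. They summed to 2390 to 2480 CPM in RGX-104 libraries and 2040 to 2090 CPM in control. Of the 11, 4 (Cd8a, Cd8b1, Lat and Thy1) were called higher in RGX-104, where 0.888% of all genes were. The CD4 T cell list, which includes Ctla4 and Il2ra as well as Cd4, summed to 1220 to 1270 CPM in RGX-104 and 1210 to 1250 CPM in control. Of its 4 tested genes none was called, 3 had a log2 fold change below 0 and 1 above it, with a median of -0.28. On the lower side 1 had an unadjusted p under 0.05 and 1 had no overlap of the groups (7.52% and 4.32% of all genes). Erythroid markers summed to 98.3 to 122 CPM in RGX-104 and 111 to 115 CPM in control. CPM here are read counts divided by a library size that TMM had corrected. Dendritic cell markers, of which 4 of 20 (H2-Eb1, H2-DMb1, H2-Aa and H2-Ab1, of MHC class II) are listed at 0 in every library, which is not read as absence because the table lists other widely used genes at 0 too, summed to 532 to 645 CPM in RGX-104 and 547 to 604 CPM in control libraries. Most of this was Ccr7 (493 and 465 CPM), which T cells also express. Macrophage and monocyte markers, with none of 18 at 0 throughout, summed to 54.6 to 66.7 CPM in RGX-104 and 53.4 to 61.3 CPM in control libraries, so both sums overlapped between the groups. The NK cell list summed to 187 to 195 CPM in RGX-104 and 114 to 142 CPM in control libraries, and most of it was Eomes (181 and 118 CPM), which CD8 T cells also express. Of the 2 NK cell markers tested, Eomes was called higher (log2 fold change 0.62). The other went the opposite way (-0.55) and was not called. It had an unadjusted p under 0.05 and no overlap of the groups (7.52% and 4.32% of all genes on the lower side). Of 9 dendritic cell markers tested none was called, 6 had a log2 fold change below 0 and 3 (Itgax at 0.58, Ccr7 at 0.09 and Cst3 at 0.02) above it, with a median of -0.23. The 2 with an unadjusted p under 0.05 were both lower. Ccl22 was at 1.61 ± 0.902 CPM in RGX-104 and 3.66 ± 0.682 CPM in control, and Fscn1 at 2.37 ± 0.613 CPM and 4.23 ± 0.909 CPM, neither called, the groups not overlapping in Ccl22 (SD, n = 4 per group). Interferon-stimulated genes are also active in dendritic cells, and the part of residual dendritic cell RNA in the values below was not tested. In sorted bulk RNA, fewer cells expressing a gene and less RNA per cell cannot be told apart.

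The 30 interferon response genes that could be tested had reads in both groups, and 1 of them passed the test. Of 30 members tested, Trim30a fell and none rose in RGX-104 libraries (edgeR quasi-likelihood test, two-sided, Benjamini-Hochberg adjusted p under 0.05 over 12162 genes). Over all genes tested 1.78% were called lower and 0.888% higher, so 1 of 30 is near the background. None of the 30 was called higher by DESeq2 or limma-voom either, and none had an unadjusted p under 0.05 in that direction, where 6.28% of all genes did. The members' log2 fold changes nevertheless lay mostly on the lower side: 27 of 30 were below 0, against 49.4% of all genes tested, with a median of -0.18 against 0.00 for all genes. The medians were -0.25 for 19 tested effectors, -0.19 for 4 sensors and -0.11 for 7 regulators, and these differences between roles were not tested. Members of one pathway share their inputs and so are not independent of each other. Oas1a and Slfn5 were too low to be tested.

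Neither chain of the interferon receptor was called. Ifnar2 was at 62.8, 56.6, 62.3 and 55.9 CPM in RGX-104 replicates 5 to 8, against 65.9, 50.1, 63.0 and 59.5 CPM in control replicates 1 to 4. The groups overlapped, control replicate 2 was the lowest of all libraries, and the log2 fold change was -0.01 with a 95% interval of -0.20 to 0.19. Ifnar1 was at 19.0, 16.8, 18.5 and 15.2 CPM in RGX-104 libraries, against 25.7, 14.9, 19.3 and 21.3 CPM in control libraries. Control replicate 1 was highest and control replicate 2 lowest, with all RGX-104 libraries between them, and the log2 fold change was -0.22 (interval -0.56 to 0.11; edgeR adjusted p = 0.575). Some stretches of 50 bases in the last 500 bases of the longest Ifnar1 coding transcript also occur in 66 other genes. The largest share was 6.21% of the stretches, with Phkg1, so some Ifnar1 reads may be lost or shared.

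The factors that carry the signal to the nucleus did not pass the test. Stat2, which joins Irf9 in the DNA-binding complex, was at 17.9, 20.1, 18.3 and 18.7 CPM in RGX-104 libraries, against 20.7, 26.0, 16.5 and 19.2 CPM in control libraries. Here control replicate 2 was the highest library and control replicate 3 the lowest. Irf9 was at 49.2, 50.1, 49.5 and 57.5 CPM in RGX-104 libraries, against 52.8, 48.3, 56.5 and 51.9 CPM in control libraries. The groups overlapped, and the log2 fold changes were -0.14 for Stat2 (interval -0.44 to 0.17) and -0.02 for Irf9 (interval -0.21 to 0.17).

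Irf7, the factor that amplifies interferon production and is itself induced by interferon, had the lowest log2 fold change of the regulators with all libraries in. It was at 6.17, 8.90, 10.65 and 10.97 CPM in RGX-104 replicates 5 to 8, against 13.1, 8.33, 10.7 and 12.9 CPM in control replicates 1 to 4. RGX-104 replicate 5 was the lowest library, the groups overlapped, and the log2 fold change was -0.30 ± 0.21 (± SE; edgeR adjusted p = 0.570). Without that library it was -0.15, and Ifnar1 was then lower at -0.27. Irf1 was at 131, 139, 145 and 137 CPM in RGX-104 libraries, against 149, 136, 137 and 131 CPM in control libraries. Its interval was the narrowest of the members, from -0.14 to 0.12 around a log2 fold change of -0.01. Usp18, the protease that takes ISG15 off proteins and blocks the receptor, was at 10.4, 10.99, 11.2 and 13.3 CPM in RGX-104 libraries, against 14.2, 9.34, 13.1 and 12.9 CPM in control libraries (log2 fold change -0.11, interval -0.47 to 0.26). With each of edgeR, DESeq2 and limma-voom, 0 of the 7 regulators were called and 0 had an unadjusted p under 0.05.

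**Figure D1:**
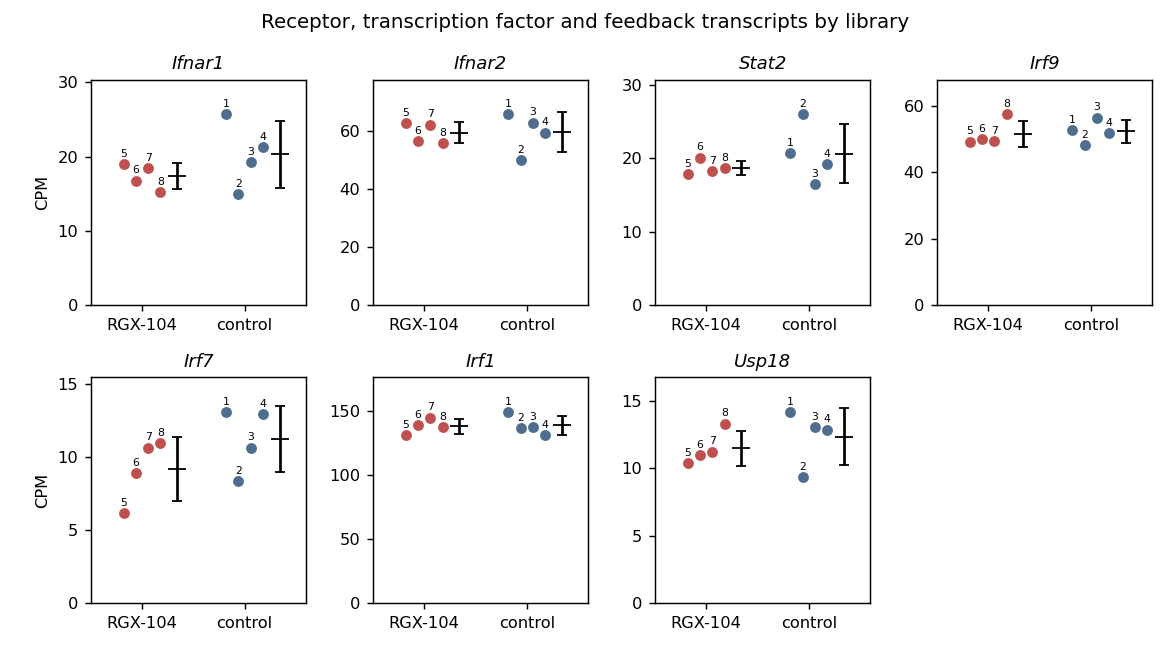
CPM of the receptor chains, transcription factors and Usp18 in each library (points, numbered by replicate; bars are mean ± SD, n = 4), with RGX-104 on the left and control on the right of each panel. The 2 groups overlap in every panel, and in Ifnar1, Ifnar2, Irf9 and Usp18 control replicate 2 is the lowest library.

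None of the cytoplasmic sensors was called. Ifih1 (MDA5) and Ddx58 (RIG-I), helicases that detect viral RNA, averaged 4.27 ± 0.694 and 4.71 ± 0.682 CPM in RGX-104 libraries, against 4.97 ± 0.973 and 5.26 ± 1.16 CPM in control libraries. Dhx58 (LGP2), a helicase of the same family that modulates them, averaged 2.06 ± 0.635 CPM in RGX-104 and 2.52 ± 0.735 CPM in control. Zbp1, which binds nucleic acid in the Z form and can start necroptosis, averaged 11.1 ± 1.15 CPM in RGX-104 and 11.5 ± 2.96 CPM in control. All 4 log2 fold changes were below 0, from -0.29 for Dhx58 to -0.05 for Zbp1, each interval included 0, and no unadjusted p was under 0.05 with edgeR, DESeq2 or limma-voom. Zbp1 lay above 0 (0.13) when control replicate 1, its highest library at 15.7 CPM, was left out.

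Trim30a, an interferon-inducible ubiquitin ligase known in mouse macrophages to restrain Toll-like receptor signalling to NF-kappaB, was the member that fell. It was at 146, 135, 171 and 163 CPM in RGX-104 replicates 5 to 8, against 230, 195, 185 and 199 CPM in control replicates 1 to 4. All RGX-104 libraries lay below all control libraries. The log2 fold change was -0.40 ± 0.08 (± SE; interval -0.55 to -0.24; edgeR adjusted p = 0.00303). The gene lies on chromosome 7 from 104409025 to 104465193 (GRCm38.p6), between its paralogs Trim30c and Trim30d, and no stretch of 50 bases in the last 500 bases of its longest annotated coding transcript was found in a transcript of another gene. The paralogs, named here after their values were seen, had log2 fold changes in the same direction and were not called by edgeR, while DESeq2 called Trim30d lower. Trim30d was at 18.4, 19.1, 21.1 and 20.7 CPM in RGX-104 libraries, against 34.5, 23.6, 25.2 and 25.6 CPM in control libraries, again without overlap (log2 fold change -0.46 ± 0.14, edgeR adjusted p = 0.0888). Trim30c averaged 1.03 ± 0.306 CPM in RGX-104 and 2.05 ± 0.692 CPM in control, with a log2 fold change of -0.99 and an edgeR adjusted p of 0.320. Of the other TRIM genes looked at in this cluster, Trim12a (-0.36) and Trim34a (-0.35) lay below 0 in log2 fold change and Trim12c (0.06) above it, none called, and Trim30b is listed at 0.

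Isg15, the ubiquitin-like protein that is attached to targets during the interferon response, came next by p. It was at 14.8, 15.1, 12.3 and 15.2 CPM in RGX-104 libraries, against 22.4, 15.3, 21.0 and 23.5 CPM in control libraries. The groups did not overlap, but control replicate 2 lay just above the highest RGX-104 library. The log2 fold change was -0.52 ± 0.16 and the edgeR adjusted p was 0.0913, above the threshold, while without control replicate 2 the log2 fold change was -0.64 and the adjusted p was 0.0295. Oasl1, an oligoadenylate synthetase-like protein that in mouse represses translation of Irf7, was at 1.54, 2.85, 1.21 and 2.44 CPM in RGX-104 libraries, against 3.94, 2.62, 4.04 and 3.63 CPM in control libraries. RGX-104 replicate 6 lay above control replicate 2, and the log2 fold change of -0.83 ± 0.36 was not called (edgeR adjusted p = 0.302). Trim30a, Isg15 and Oasl1 were the 3 members with an unadjusted p under 0.05, all lower, where 7.52% of all genes had such a p on the lower side.

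Ifi44, an interferon-induced protein with antiviral activity, averaged 3.46 ± 0.464 CPM in RGX-104 and 4.70 ± 0.642 CPM in control. Its highest RGX-104 library, at 3.96 CPM, lay below the lowest control library, at 4.20 CPM, but its log2 fold change of -0.44 had an interval of -1.01 to 0.13. With Trim30a and Isg15, it made 3 of 30 tested members whose groups did not overlap on the lower side. Over all genes tested this held for 4.32%, and for 3.88% on the higher side, where there was no member.

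**Figure D2:**
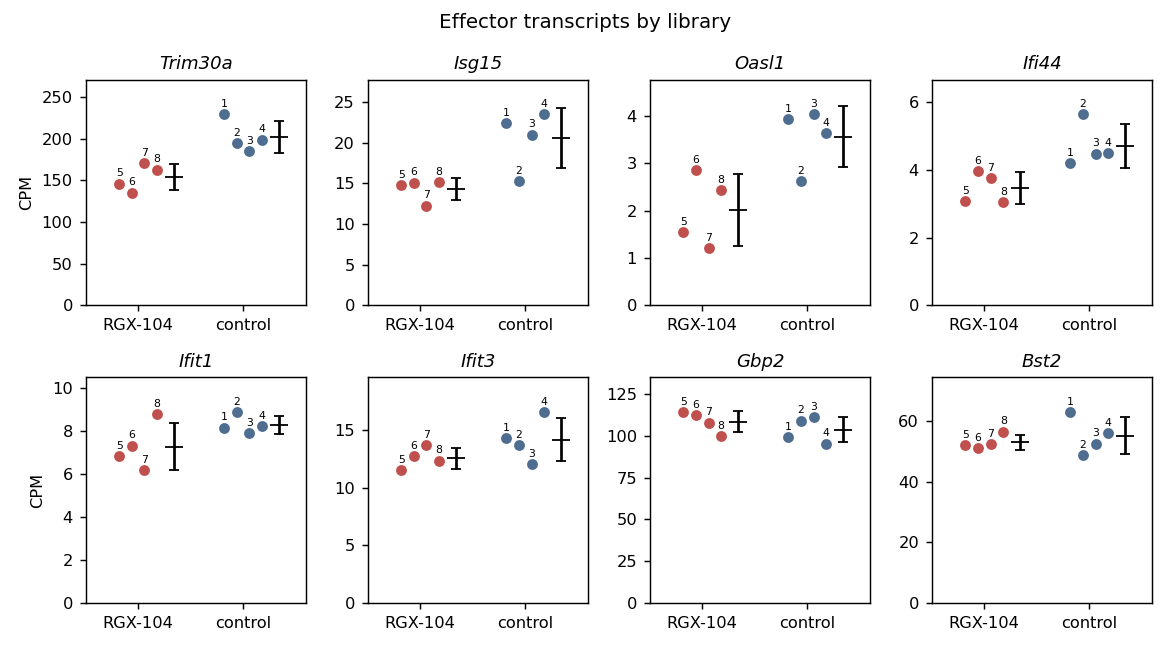
CPM of 8 effector transcripts in each library (points, numbered by replicate; bars are mean ± SD, n = 4), with RGX-104 on the left and control on the right. Trim30a, Isg15 and Ifi44 do not overlap between the groups, whereas Oasl1, Ifit1, Ifit3, Gbp2 and Bst2 do.

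The IFIT genes, among them Ifit1, whose protein binds viral RNA that lacks host cap methylation, lie side by side on chromosome 19. Ifit1 averaged 7.26 ± 1.11 CPM in RGX-104 and 8.27 ± 0.422 CPM in control, and RGX-104 replicate 8, at 8.76 CPM, lay within the control range of 7.89 to 8.87 CPM. Ifit2 averaged 11.9 ± 2.59 CPM in RGX-104 and 14.6 ± 3.13 CPM in control. Ifit3 averaged 12.6 ± 0.893 CPM in RGX-104 and 14.2 ± 1.87 CPM in control, and 14.9% of the stretches of 50 bases near its end also occur in Ifit3b, so reads could be split between them. The log2 fold changes were -0.19 for Ifit1, -0.30 for Ifit2 and -0.17 for Ifit3, with all 3 intervals including 0.

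The oligoadenylate synthetases make the messenger that switches on RNase L. Oas3 was at 7.79, 7.72, 16.2 and 11.5 CPM in RGX-104 replicates 5 to 8, a spread wider than that of the control libraries, which lay between 11.4 and 16.8 CPM (log2 fold change -0.32, interval -0.77 to 0.13). Oas2 had the lowest log2 fold change of the members, -0.95, but rested on 36 reads in all RGX-104 libraries and 75 in all control libraries, and its interval ran from -2.06 to 0.16. Oasl2, which lies beside Oasl1 on chromosome 5, had 2.85 ± 0.655 CPM in RGX-104 and 3.16 ± 0.439 CPM in control (log2 fold change -0.15). Oas1a had 11, 9, 7 and 0 reads in RGX-104 libraries, against 5, 4, 26 and 24 reads in control libraries, and 56.1% of the stretches near its end also occur in Oas1g, so its counts are uncertain and no difference was readable at this depth.

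The other effectors with direct antiviral roles were not called. Rsad2 (viperin), which makes a chain-terminating nucleotide, and its neighbour Cmpk2, a nucleotide kinase, had log2 fold changes of -0.14 and -0.36. Rsad2 was at 5.75 to 8.69 CPM in RGX-104 libraries and 7.38 to 8.07 CPM in control libraries, and Cmpk2 averaged 1.71 ± 0.498 and 2.21 ± 0.564 CPM. Bst2 (tetherin), which holds budding virus at the cell surface, averaged 53.0 ± 2.44 CPM in RGX-104 and 55.1 ± 6.07 CPM in control, with an interval of -0.25 to 0.14. Isg20, an exonuclease, was at 2.81 to 3.88 CPM in RGX-104 libraries and 1.58 to 6.41 CPM in control libraries, the widest relative spread of any tested member within control. Mx1 averaged 1.10 ± 0.278 CPM in RGX-104 and 1.42 ± 0.246 CPM in control. The RefSeq table lists it as a transcribed pseudogene, since the reference strain carries a broken copy of this GTPase, which blocks influenza viruses.

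Gbp2, a guanylate-binding GTPase that responds to interferon gamma as well as type I interferon, had the highest log2 fold change of the members, 0.07 with an interval of -0.08 to 0.21. It was at 114, 112, 108 and 99.6 CPM in RGX-104 libraries, against 99.3, 109, 111 and 95.3 CPM in control libraries, so the groups overlapped. Rtp4, a chaperone of membrane receptors, and Isg20 were the other members above 0, both at 0.01, and both had intervals wider than 0.5 on either side. Xaf1, a pro-apoptotic protein, averaged 6.07 ± 1.62 CPM in RGX-104 and 7.20 ± 1.64 CPM in control (log2 fold change -0.25). Ifi203, a member of the cluster of DNA-binding interferon genes on chromosome 1, was at 9.53 to 12.98 CPM in RGX-104 libraries and 11.2 to 14.4 CPM in control libraries (log2 fold change -0.10). Slfn5, a Schlafen family protein, had 1 to 4 reads in every library of both groups. The table lists the symbols Ifi203 and Slfn5 again with a number appended at 0 reads, so the values of these genes are uncertain.

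**Figure D3:**
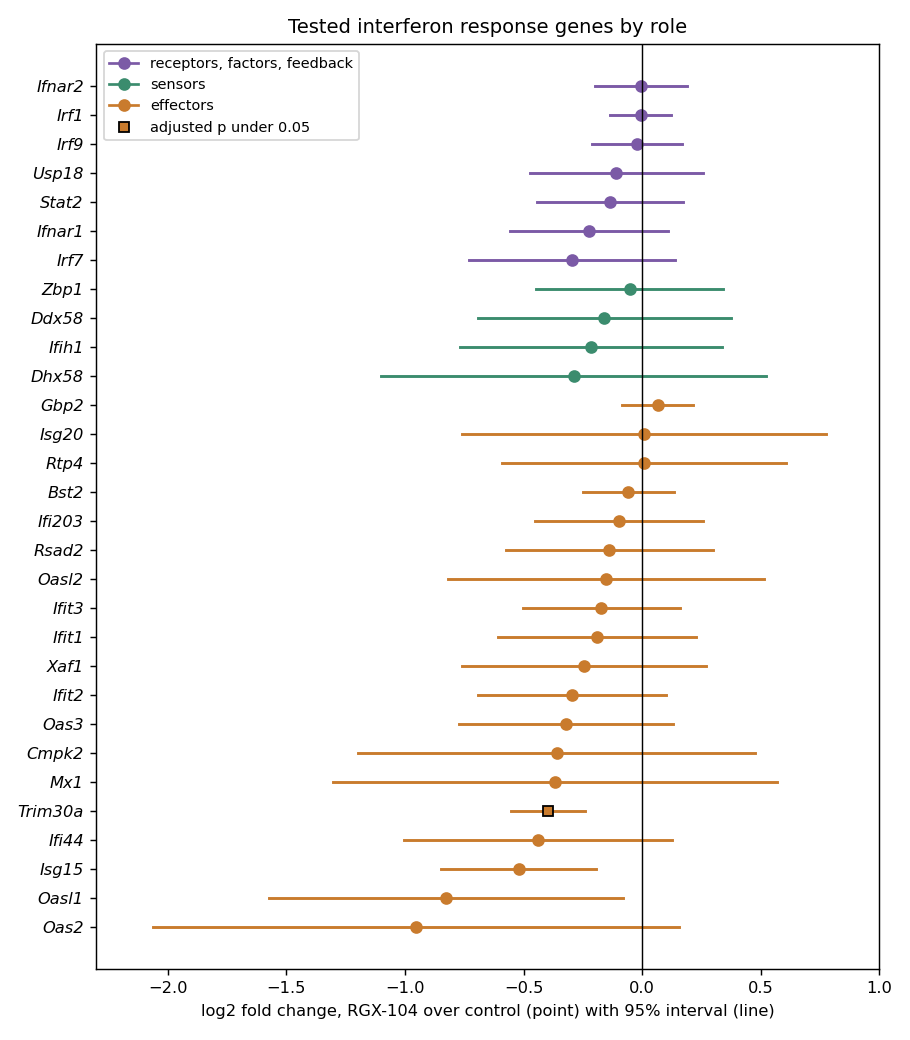
Log2 fold change of RGX-104 over control with its 95% interval for the 30 tested members, grouped from top to bottom as receptors, factors and feedback, then sensors, then effectors. The points lie left of 0 in 27 of 30, while 27 intervals include 0, and the square marks Trim30a.

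Precision followed the read count. The 6 members at a mean of 50 CPM or more (Irf9, Bst2, Gbp2, Trim30a, Ifnar2 and Irf1) had standard errors of 0.06 to 0.09 on the log2 scale and a median log2 fold change of -0.01. The 13 members from 5 to 50 CPM had standard errors of 0.15 to 0.25 and a median of -0.19, and the 11 members under 5 CPM had standard errors of 0.26 to 0.54 and a median of -0.29. For 4 members, Irf1, Irf9, Ifnar2 and Gbp2, the interval lay within 0.25 of 0. Of the 11 members under 5 CPM, only Oasl1 had an interval that excluded 0, and differences as small as the median of the members lay within the standard error of each.

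The members' median and summed level separated the groups, by a narrow margin between RGX-104 replicate 7 and control replicate 2. The median difference of the 30 members from their own mean over 8 libraries was -0.18, -0.08, -0.02 and -0.06 on the log2 scale in RGX-104 replicates 5 to 8. It was 0.23, -0.01, 0.06 and 0.12 in control replicates 1 to 4, so the groups did not overlap, with RGX-104 replicate 7 at -0.017 next to control replicate 2 at -0.008. RGX-104 replicate 7 and control replicate 2 each had 14 of 30 members above the gene's own mean, while RGX-104 replicate 5 had 6 and control replicate 1 had 24. The summed CPM of all 32 members was 724, 721, 779 and 753 in RGX-104 libraries, against 891, 780, 811 and 811 in control libraries, again without overlap (778.6 in RGX-104 replicate 7 and 780.0 in control replicate 2). Without Trim30a the sums were 578, 586, 608 and 590 CPM in RGX-104 libraries, against 661, 585, 626 and 612 CPM in control libraries, and control replicate 2 then lay within the RGX-104 range. Without control replicate 1 the median log2 fold change was -0.04 for the regulators and -0.08 for the sensors, and without RGX-104 replicate 5 it was -0.06 and -0.17.

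**Figure D4:**
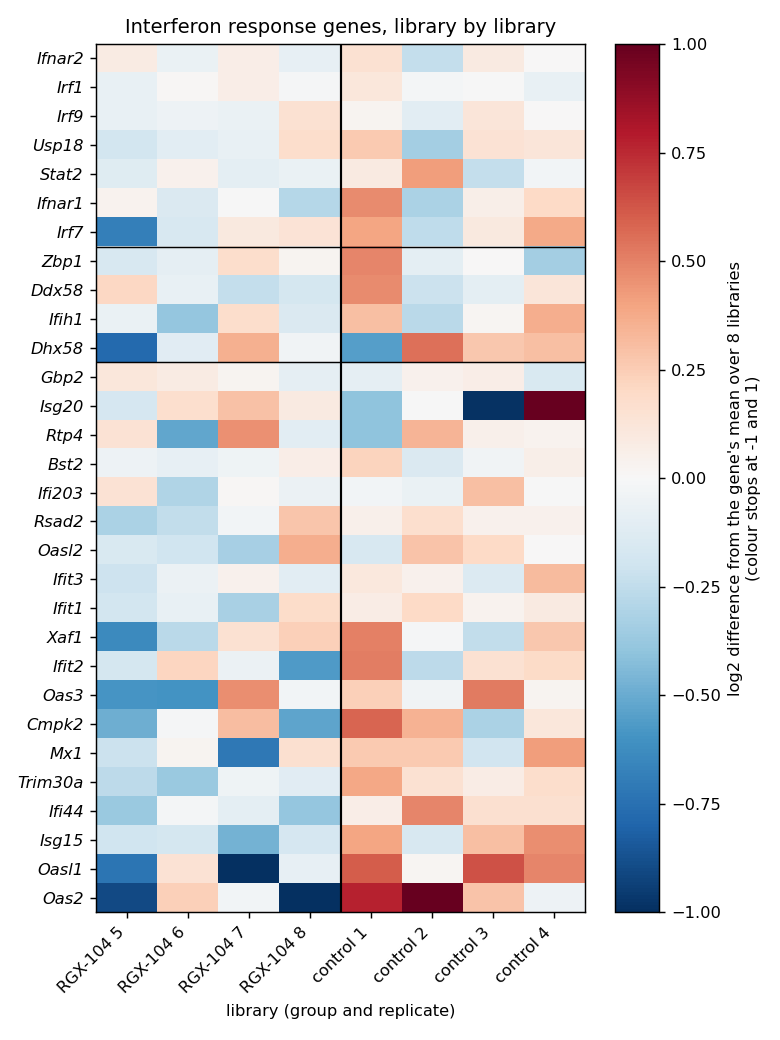
Log2 difference of each tested member from its own mean over 8 libraries (rows, by role; red above, blue below; colour stops at -1 and 1), with RGX-104 libraries left of the line and control libraries right of it. Control replicate 1 is mostly red (24 of 30 members above their mean) and RGX-104 replicate 5 mostly blue (6 of 30), while RGX-104 replicate 7 and control replicate 2 are mixed (14 of 30 each).

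Members with and without the ISRE letters near their start overlapped in their log2 fold changes. The median was -0.17 in 12 tested members with a match, from -0.52 for Isg15 to 0.07 for Gbp2. It was -0.24 in 12 tested members without one, from -0.83 for Oasl1 to 0.01 for Isg20. The 6 tested members with GAS letters, among them Irf1 and both receptor chains, had a median of -0.03, against -0.20 in 18 without. These are descriptions, since the members share regulators and no test was made.

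Among interferon genes themselves, 15 of 18 are listed at 0 in every library, which is not read as absence. The single gene tested was Ifng, the type II interferon made by the T cells. Ifng rose to 826 ± 59.2 CPM in RGX-104 libraries, against 578 ± 39.1 CPM in control libraries (log2 fold change 0.51 ± 0.06, edgeR adjusted p = 2.67e-06). Its exons overlap those of Gm49751 on the same strand over 336 bases. Of 39 listed genes of the interferon gamma response, 8 are listed at 0 in every library, among them Tap1, Tap2, Tapbp, Psmb8, Psmb9 and H2-D1. That is not read as absence, and these genes could not be tested. Of the 20 tested genes of this list, 0 were called by edgeR in either direction, where 0.888% of all genes were called higher and 1.78% lower. Of these 20, 2 were higher and 6 lower at an unadjusted p under 0.05 (6.28% and 7.52% of all genes), DESeq2 called Gbp5 lower and limma-voom called none. Gbp5, a guanylate-binding protein that promotes inflammasome assembly, averaged 62.3 ± 1.96 CPM in RGX-104 and 76.9 ± 8.16 CPM in control (log2 fold change -0.30, edgeR adjusted p = 0.0586). Gbp8 averaged 3.48 ± 0.518 CPM in RGX-104 and 6.55 ± 2.74 CPM in control, and B2m, the light chain of MHC class I, 1730 ± 63.8 CPM in RGX-104 and 1559 ± 128 CPM in control (log2 fold change 0.15, edgeR adjusted p = 0.142). The list median was -0.16, with 12 of 20 genes below 0.

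Of 20 tested signalling genes beside the members, edgeR called Irf8 higher and none lower, where 0.888% of all genes were called higher and 1.78% lower. The median log2 fold change was 0.03. At an unadjusted p under 0.05, 5 were higher and 3 lower (6.28% and 7.52% of all genes). The groups did not overlap in 2 genes on the higher side and 1 on the lower side (3.88% and 4.32% of all genes). Irf8, a transcription factor that partners other IRFs, was at 1095 ± 20.5 CPM in RGX-104 and 932 ± 33.6 CPM in control (log2 fold change 0.23 ± 0.04, edgeR adjusted p = 0.00167). Ptpn6 (SHP-1) and Ptpn1, phosphatases that dampen JAK signalling, had log2 fold changes of 0.19 each with edgeR adjusted p of 0.0669 and 0.114, and DESeq2 called both higher.

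Of 17 tested nucleic acid sensing genes, Aim2 was called lower and none higher, where 1.78% of all genes were called lower and 0.888% higher. The median log2 fold change was -0.05. At an unadjusted p under 0.05, 1 was lower and 2 higher (7.52% and 6.28% of all genes). The groups did not overlap in 2 genes on the lower side and 1 on the higher side (4.32% and 3.88% of all genes). Aim2, a cytosolic DNA sensor that builds an inflammasome, averaged 42.3 ± 3.63 CPM in RGX-104 and 54.4 ± 3.78 CPM in control (log2 fold change -0.36 ± 0.10, edgeR adjusted p = 0.0401). Sting1, the adaptor of cytosolic DNA sensing, averaged 41.8 ± 2.34 CPM in RGX-104 and 34.4 ± 3.36 CPM in control, and Myd88, the adaptor of Toll-like receptors, 76.7 ± 3.45 and 68.1 ± 2.45 CPM, neither called (edgeR adjusted p = 0.205 and 0.306).

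Of 57 tested genes in a longer list of interferon-stimulated genes, Ly6e rose, Sp140 fell, and 39 had a log2 fold change below 0 (median -0.13), where 0.888% of all genes were called higher, 1.78% lower and 49.4% lay below 0. At an unadjusted p under 0.05, 12 were lower and 3 higher (7.52% and 6.28% of all genes). The groups did not overlap in 7 genes on the lower side and 2 on the higher side (4.32% and 3.88% of all genes). Sp140, a chromatin reader that limits type I interferon in mouse macrophages, averaged 18.7 ± 2.95 CPM in RGX-104 and 28.1 ± 4.42 CPM in control (log2 fold change -0.58 ± 0.15, edgeR adjusted p = 0.0311). Its exons overlap Gm17017 on the opposite strand over 877 bases. Ly6e, a surface protein that restricts coronavirus entry, averaged 187 ± 7.15 CPM in RGX-104 and 160 ± 2.62 CPM in control (log2 fold change 0.22 ± 0.06, edgeR adjusted p = 0.0289). Mx2, also a transcribed pseudogene in the RefSeq table, averaged 0.545 ± 0.275 CPM in RGX-104 and 2.31 ± 1.97 CPM in control, with an edgeR adjusted p of 0.0597. DESeq2 called Mx2 lower in addition to Trim30d.

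**Figure D5:**
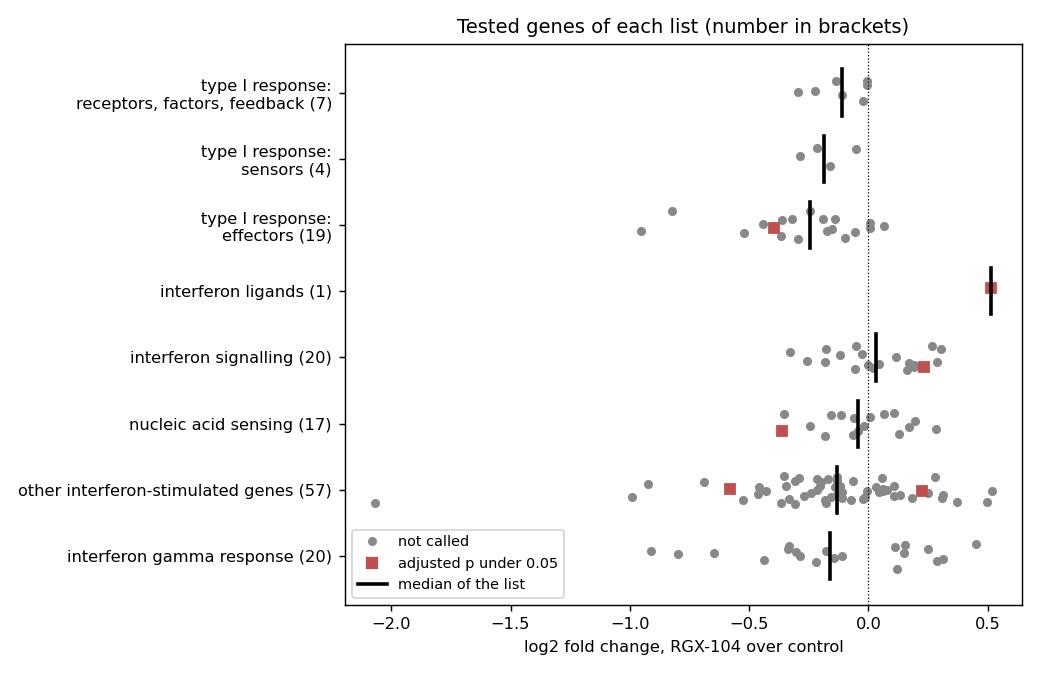
Log2 fold change of RGX-104 over control for each tested gene (points, with the number tested in brackets) of the members by role and of the other interferon lists, where squares mark genes called at an adjusted p under 0.05 and black bars the medians. Ifng stands at 0.51, while the medians of the effectors (-0.25), of the longer list of interferon-stimulated genes (-0.13) and of the interferon gamma response (-0.16) lie below 0.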

How the data were processed

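Per the labels' protocols, RNA of the sorted T cells went into Lexogen 3′ FWD libraries, whose reads lie near transcript ends. The authors deposited raw read counts per gene for 8 libraries; the submitters' processing notes name STAR 2.7.8a, R 4.1.0, DESeq2 1.4 and GRCm38. How reads were counted, with which strand setting and whether with molecular identifiers, is not given in these sources; without identifiers, counting precision covers counting error only. Columns were matched to samples by number and group word (0 columns belonged to another series). The test was edgeR 4.0.16 (R 4.3.3) with filterByExpr, TMM, estimateDisp, glmQLFit and glmQLFTest with group as the only term over 8 libraries, adjusted over 12162 genes at a threshold of 0.05. The standard error was the log2 fold change divided by the root of F, and intervals are 95% intervals from it. CPM used TMM-scaled library sizes. The procedure was tested on simulated data. No library pair within a group agreed within counting noise (chi-square per degree of freedom 6.61 to 10.2). Members were named from the list of 32. The rule gave library values in full to receptors, transcription factors and members with an unadjusted p under 0.05; they are also given for Usp18, Gbp2, Oas1a and, in RGX-104, Oas3, and of each other list the called genes and the 3 with the smallest p are named. The members and lists were chosen with earlier results of these data known. Exon overlaps of at least 100 bases (GENCODE M21) were found for the members Irf9, Usp18, Rtp4, Dhx58, Slfn5, Ifnar2 and Irf1, whose reads may mix with a neighbour's. Among the other genes named, the same held for Ifng, Sp140, Ptpn6 (195 bases) and Myd88 (290 bases), and Sting1 was not found in that annotation. Alternatives were RLE scaling, no filter, DESeq2 1.42.0, limma-voom (limma 3.58.1), robust estimation, removal of 2339 repeated symbols, and leaving out each library. 1 gene of the signalling lists is not reported here.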

Additional observations from a re-analysis of the deposited data

Results flagged for a closer look

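The members' CPM were screened for a library far from the other 3 of its group by Dixon's ratio. Of 64 groups 4 stood out, about what chance gives (about 1 in 20 groups). Isg15 in RGX-104 replicate 7 was at 12.25 CPM, below the other RGX-104 libraries at 14.8 to 15.2 CPM. Irf9 in RGX-104 replicate 8 was at 57.53 CPM, above the others at 49.2 to 50.1 CPM. Rsad2 in control replicate 2 was at 8.065 CPM, above 7.38 to 7.43 CPM in the other control libraries. Ifi203 in control replicate 3 was at 14.45 CPM, above 11.2 to 11.7 CPM in the others.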

How the results depend on the processing

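No paired analysis was possible because the replicate numbers, 1 to 4 and 5 to 8, are not shared between the groups. Trim30a was called lower under all 14 alternatives, with a log2 fold change of -0.45 to -0.33, and no member was called higher under any. Members called lower numbered 1 throughout, except 2 without control replicate 2 (1 to 2 over the libraries left out), where Isg15 was added; its adjusted p otherwise ran from 0.0502 (DESeq2) to 0.228. The effectors' median log2 fold change ran from -0.30 to -0.17 with each library left out, the upper end without RGX-104 replicate 5, and that of all members from -0.23 to -0.14. Between 25 and 29 members lay below 0 under the alternatives. Over all genes, 202 to 303 were called with a library left out, and 57 to 93 were called higher, against 324 and 108, and DESeq2 called 178 higher; the cause was not tested.

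The sign of the log2 fold change changed in 19 cases over 7 members, each with an adjusted p of 0.841 or more. With limma-voom Rtp4 was at -0.004. The other cases came from leaving out a library, where Isg20 ran from -0.229 to 0.518, Rtp4 ran from -0.167 to 0.155, Ifnar2 ran from -0.079 to 0.046, Irf9 ran from -0.077 to 0.017, Irf1 ran from -0.031 to 0.031, Bst2 ran from -0.111 to 0.014 and Zbp1 from -0.162 to 0.133. Members under 5 CPM are limited by depth.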
